A study of Mus musculus with 4 samples.

Results

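The genes described here encode the proteins of the cytosolic ribosome. They were taken as the probe sets whose single gene symbol in the platform annotation is Rpl or Rps followed by a number and at most 1 letter, together with Rplp0, Rplp1, Rplp2 and Rpsa. Rps6k kinases and pseudogenes were left out. This gave 46 genes with 100 probe sets, out of 18193 genes and 45037 probe sets on the array, and 43 of the genes with 93 probe sets were bright enough to be tested. Another 28 ribosomal protein symbols occurred only on probe sets that the annotation shares with pseudogenes or other genes, so Rplp1, Rpl5, Rpl3 and Rpl10 have no value of their own.

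Total RNA came from unstimulated cells of 2 fibroblast lines, L929, derived from connective tissue of a mouse, and NIH3T3, derived from mouse embryos, both and without any genetic change named in the labels. The submitters describe L929 as sensitive to necrosis and NIH3T3 as sensitive to apoptosis. For each line 2 Affymetrix arrays (Mouse Genome 430 2.0) were hybridised, called L929 1, L929 2, NIH3T3 1 and NIH3T3 2 by their replicate numbers. Each way of dying is represented by 1 line, and nothing in the labels says that the arrays of a line came from separate cultures, so the p-values cover no more than the spread seen among the 4 samples, and that spread may be technical.

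Each cytosolic ribosome is built from a small subunit, which reads the mRNA, and a large subunit, which joins amino acids. Their proteins are needed in mostly equal numbers and come from genes scattered over many chromosomes, whose mRNAs are among the most abundant of a growing fibroblast. Many of these mRNAs begin with a run of pyrimidines, the terminal oligopyrimidine tract, through which the growth kinase mTOR controls their translation. An array of total RNA measures the amount of mRNA and not that translation.

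The sequences around the start sites are shown for the 3 members that were called different between the lines (Rps6, Rpl14 and Rpl12), for 2 members that lay at or next to the median of the family (Rps10 and Rpl38), and for the paralogue Rpl39l. They run from 35 bases before to 25 bases after the RefSeq start, on the transcribed strand of GRCm38.p6. Capitals mark the longest run of at least 8 pyrimidines.
Rps6: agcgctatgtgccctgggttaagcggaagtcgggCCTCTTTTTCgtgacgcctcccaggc
Rpl14: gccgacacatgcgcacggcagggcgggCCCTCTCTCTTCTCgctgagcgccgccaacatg
Rpl12: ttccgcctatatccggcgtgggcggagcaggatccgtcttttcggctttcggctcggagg
Rps10: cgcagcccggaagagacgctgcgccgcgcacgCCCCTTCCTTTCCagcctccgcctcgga
Rpl38: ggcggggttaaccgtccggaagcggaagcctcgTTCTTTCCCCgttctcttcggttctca
Rpl39l: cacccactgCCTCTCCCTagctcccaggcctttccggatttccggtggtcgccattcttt

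These windows lie at chr4:86857343-86857402 on the minus strand for Rps6, chr9:120571482-120571541 on the plus strand for Rpl14 and chr2:32961677-32961736 on the plus strand for Rpl12. The windows of Rps10 (chr17:27635220-27635279, minus strand), Rpl38 (chr11:114668545-114668604, plus strand) and Rpl39l (chr16:10170193-10170252, plus strand) complete the set. The run was 10 bases long in Rps6, 14 in Rpl14, 13 in Rps10, 10 in Rpl38 and 9 in Rpl39l, and the Rpl12 window held none of that length. Over the family, 40 of the 46 genes matched 48 RefSeq promoters, and 25 of these 48 (52.1%) held such a run in the same window, against 23.8% of all 32851 promoters in the table. In the 300 bases from 250 before to 50 after the start, on both strands, the letters CCGGAAG, a core bound by ETS factors, were found in 20 member promoters (41.7%), against 8.86% of all. The YY1 core AAGATGG was found in 14.6% of the member promoters against 6.34% of all, and TATAAA in 10.4% against 13.6%. CCGGAAG and AAGATGG can overlap in the AAG they share, and a match is only a description of the sequence. A pyrimidine run was held by Rps6 and Rpl14, called lower in L929 on the probe set standing for each gene. Rps10 and Rpl38, which did not pass the test, held a run too.

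Signals are MAS5 intensities in arbitrary units, scaled so that the 4 arrays share a trimmed mean. As deposited, L929 had trimmed means of 142 and 135 and NIH3T3 had 135 and 210, so NIH3T3 2 was the brighter array and was multiplied by 0.726. Differences are log2(scaled signal + 8.01), L929 minus NIH3T3, a scale that understates the change of dim genes. Calls are limma's, and needed an adjusted p (Benjamini-Hochberg, over the 12676 genes tested) under 0.05 and a fold above 1.5. As bulk signals, they cannot tell fewer cells with an mRNA from less of it per cell. All 10 listed fibroblast markers were above the filter level of 17.3 on both arrays of both lines, with Thy1, the lowest in L929, at 18.0 and 30.0 there. Of the other cell types, 2 of 5 epithelial markers, 1 of 4 leukocyte markers and 1 of 3 endothelial markers were bright enough to be tested, and none of these exceeded 81.0 on any array.

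The probe sets standing for the genes were mostly bright, 36 of the 43 tested lying above 1000 on every array and 6 below it. Each of those 6 genes also had a brighter probe set shared with other symbols, so bright and dim describe probe sets here. Most members did not pass the test between L929 and NIH3T3. Of the 43 tested, 0 were called higher and 3 were called lower in L929, namely Rps6, Rpl14 and Rpl12. Among all genes 35.2% were called, 17.4% higher and 17.8% lower, against 6.98% of the members. At an unadjusted limma p under 0.05 there were 2 higher members (Rpl37 and Rps25) and 3 lower ones, and 5 members had an adjusted p under 0.05 at any fold, against 46.6% of all genes. The median difference of the family was 0.19, with 36 members positive and 7 negative, and that of all genes was 0.014. The members' differences lay close together, with a scaled median absolute deviation of 0.12 around the family median.

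The absence of a call does not show equal levels. The standard errors of the members ran from 0.10 to 0.39, and the median half-width of the 95% interval was 0.58, against 0.39 over all tested genes. For 33 of the 43 members the interval reached beyond a 1.5-fold higher level in L929. The middle of the family is represented by Rps10, a small subunit protein of the mRNA entry side, which read 11264 and 11393 in L929 and 12558 and 7842 in NIH3T3. Its L929 arrays lay between the NIH3T3 arrays. Its difference was 0.19 ± 0.28 (SE, n = 2 arrays per line; limma adjusted p = 0.608), and its interval ran from -0.45 to 0.83.

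**Figure D1:**
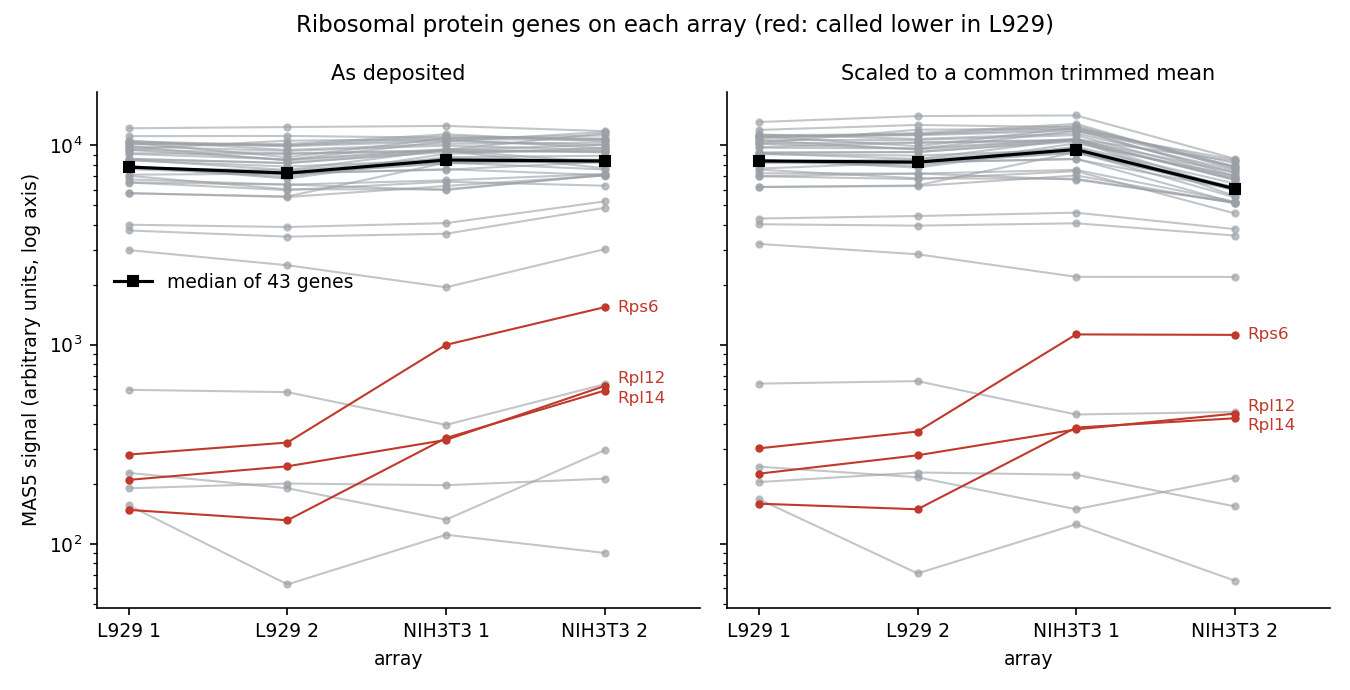
MAS5 signal of each of the 43 tested ribosomal protein genes (lines) on the 4 arrays, on a log axis, as deposited (left) and after scaling (right), with the family median in black and the 3 called genes in red. After scaling, the median was 8368 and 8254 in L929, 9542 on NIH3T3 1 and 6070 on NIH3T3 2, while the red genes were higher on both NIH3T3 arrays.

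The spread of the family lay in the NIH3T3 pair. The family median was 8368 on L929 1 and 8254 on L929 2, but 9542 on NIH3T3 1 and 6070 on NIH3T3 2. Both L929 arrays lay between the NIH3T3 arrays for 32 of the 43 members, an order seen in 3.90% of all genes. Only Rpl11, Rpl37, Rps25, Rps27 and Rps3 were above both NIH3T3 arrays in both L929 arrays, where 37.6% of all genes were, and only Rpl12, Rpl14 and Rps6 were below both, where 36.3% of all genes were.

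The ratio of NIH3T3 2 to NIH3T3 1 differed between most members with a bright probe set and most with a dim one. All 36 members above 1000 on every array, a level chosen after seeing the values, read lower on NIH3T3 2, with a median ratio of 0.650. For the 6 members below 1000 on every array the median ratio was 1.07, and for all genes it was 1.01. Of those 6, 2 also read lower on NIH3T3 2, namely Rpl39, with the lowest ratio of the family at 0.522, and Rpl27a, at 0.694. Each of the 6 genes also had at least 1 shared probe set above 1000 on every array. These bright shared probe sets all read lower on NIH3T3 2, with ratios such as 0.669 for Rpl39 and 0.628 for Rps27. The 598 brightest genes outside the family, the top 5%, had a ratio of 0.860, and 511 of them read lower on NIH3T3 2. Before scaling, the members' median signal was nearly the same on the pair, at 8456 and 8358, while the median ratio of all genes was 1.57. The highest member signal as deposited was 12205, 12375, 12541 and 11812 on the 4 arrays. As deposited, the ratio of NIH3T3 2 to NIH3T3 1 had a median of 1.01 over the 36 bright members and 1.66 over the 6 dim ones. In the L929 pair the ratios of the 36 bright members ran from 0.887 to 1.17 after scaling.

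**Figure D2:**
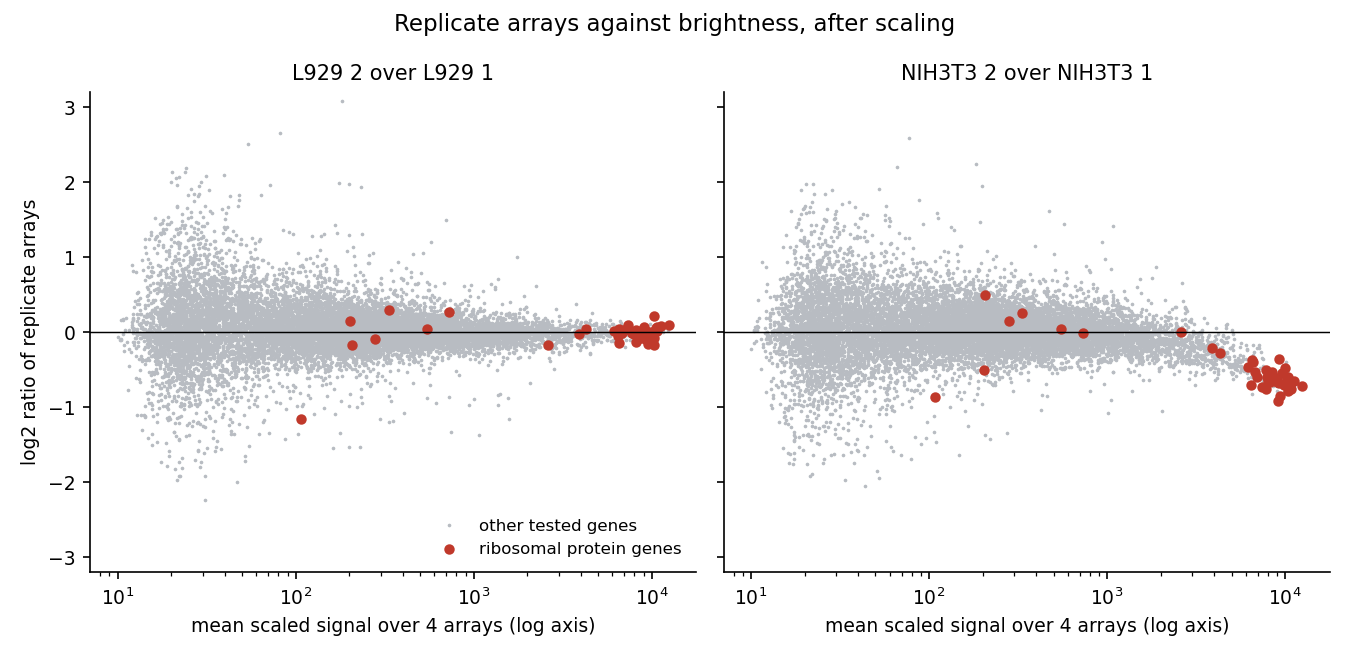
Log2 ratio of the replicate arrays of L929 (left) and NIH3T3 (right), on the log2(scaled signal + 8.01) scale, against the mean scaled signal on a log axis, for the ribosomal protein genes (red) and the other tested genes (grey). The 36 red points above 1000 stay near 0 in L929 and all lie below 0 in NIH3T3, while the dim red points scatter in both, with Rpl39 far below 0 in L929 as well.

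The sign of the family's difference turned with the NIH3T3 array used. With 1 NIH3T3 array left out, the lone array of that line is assumed to vary like the others, and the spread of a gene comes only from its L929 pair, so p-values and calls from such fits leave out the spread between the NIH3T3 arrays. Without NIH3T3 2 the median difference was -0.12, with 38 members negative, 5 positive and 31 changing sign, and without NIH3T3 1 it was 0.46. Cyclic loess, which removes a trend of the array differences with brightness, gave 0.0089. The members lie at the top of the range, with a median of 8368 on L929 1 against 3029 for the brightest other genes. The trend removed there is in part their own, so a value near 0 follows in part from the method. The 598 brightest other genes moved in the same order, from -0.0069 without NIH3T3 2 to 0.23 without NIH3T3 1, and to -0.0084 with loess. Without NIH3T3 1, 9 members were called higher in L929 (Rpl41, Rpl7a, Rpl8, Rplp0, Rplp2, Rps18, Rps2, Rps26 and Rps29), where 16.1% of all genes were, and 3 lower, where 15.8% were. Without NIH3T3 2 only Rps27 was called higher, where 16.3% of all genes were, and 2 members lower, where 14.8% were. With loess on all 4 arrays 0 members were called higher, where 17.5% of all genes were, and 3 lower, where 17.9% were. With loess and without NIH3T3 1, an alternative added after seeing the data, the 9 higher calls were 0. Centred on the family's own median on each array, 0 members were called higher, where 6.33% of all genes were, and 2 lower (Rps6 and Rpl14), where 9.82% were. The part that brightness near the top of the range plays in the family's sign was not tested beyond these values.

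**Figure D3:**
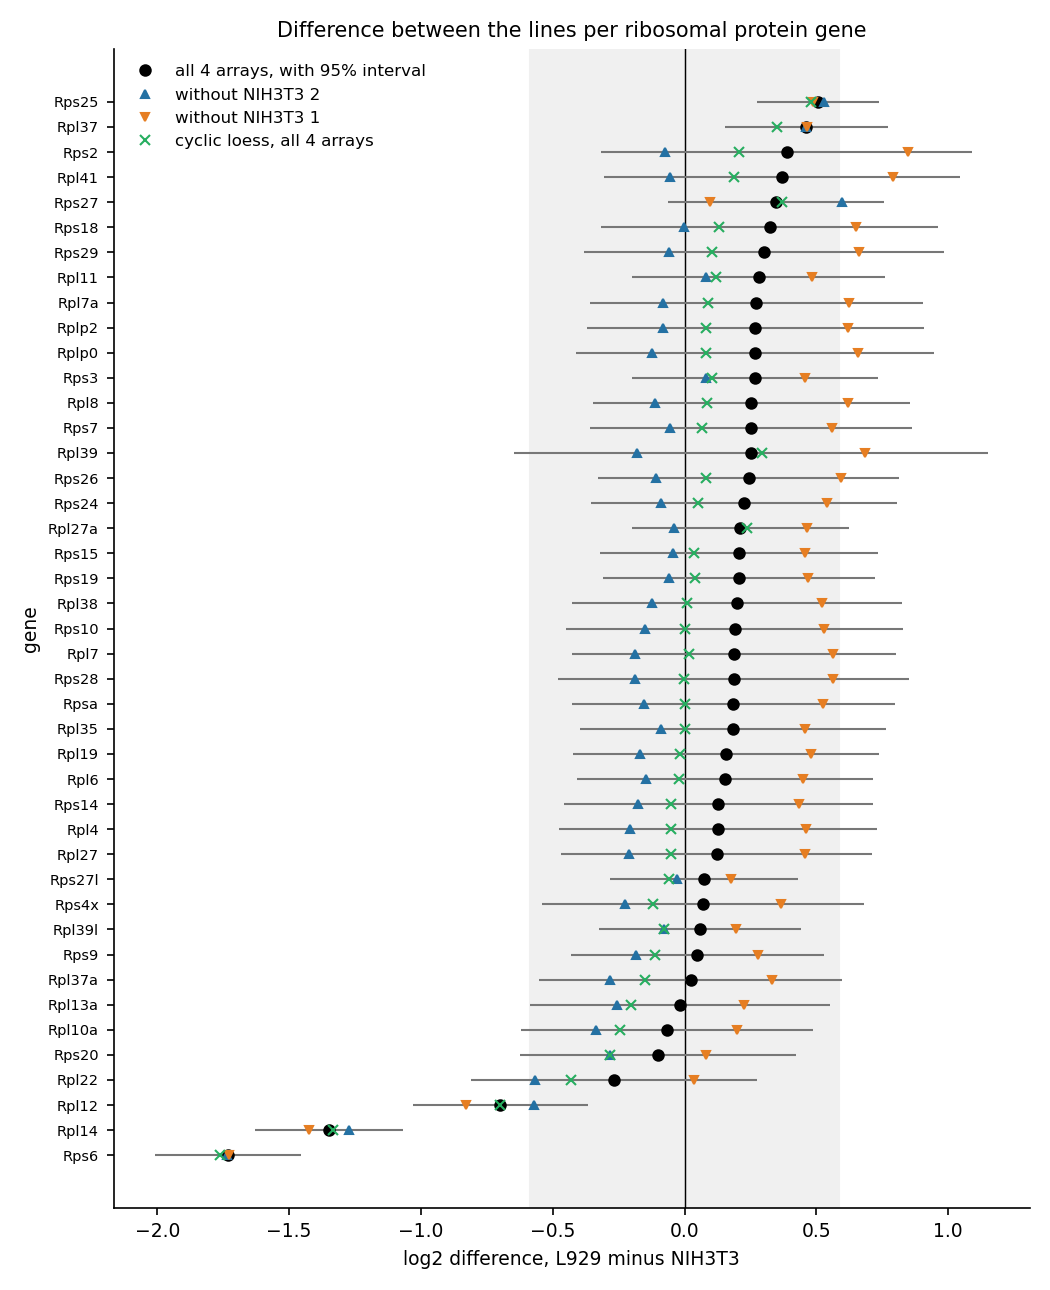
Log2 difference between L929 and NIH3T3 for each of the 43 tested genes, with all 4 arrays and its 95% interval (black), without NIH3T3 2 (blue), without NIH3T3 1 (orange) and after cyclic loess (green crosses). The grey band spans a 1.5-fold change. Most genes have blue below 0 and orange above 0, while Rps6 and Rpl14 stay beyond the band under all 4.

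Rps6, a protein of the small subunit that is phosphorylated by the S6 kinases downstream of mTOR, stood farthest from the family. The brighter of its 2 own probe sets read 302 and 367 in L929 and 1126 and 1120 in NIH3T3. The lines did not overlap, and the NIH3T3 arrays were nearly equal. The means were 334 ± 45.7 and 1123 ± 4.23 (SD, n = 2), a difference of -1.73 ± 0.12 (SE), or 3.32-fold lower in L929 (limma adjusted p = 9.6e-06). Without NIH3T3 2 it was -1.74 and without NIH3T3 1 it was -1.73. This probe set lay 1.92 below the family median on the log2 scale. The shared probe sets of Rps6, given below, did not all follow it. The brightest had a difference of 0.34 that was not called, while some dimmer ones were called lower.

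Rpl14, a protein of the large subunit, was the next in distance. It read 159 and 149 in L929 and 384 and 427 in NIH3T3, again with no overlap. The means were 154 ± 7.03 and 405 ± 30.9 (SD, n = 2), a difference of -1.35 ± 0.12, or 2.55-fold lower in L929 (limma adjusted p = 4.6e-05). It was -1.27 without NIH3T3 2 and -1.42 without NIH3T3 1. These values come from the only own probe set of Rpl14, a dim one. Its brighter shared probe sets, given below, had differences from -0.055 to 0.028 and were not called.

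Rpl12 belongs to the base on which the ribosomal stalk sits. Its brighter shared probe sets, given below, had differences of 0.30 and were not called. Its only own probe set read 225 and 278 in L929 and 376 and 451 in NIH3T3. The lines did not overlap, but the gap was small. The means were 252 ± 37.7 and 413 ± 53.2 (SD, n = 2), a difference of -0.70 ± 0.14, or 1.62-fold lower in L929 (limma adjusted p = 0.0044). The call was lost without NIH3T3 2, at -0.57, and without L929 1, at -0.55, since both lie under the fold of 1.5.

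Rpl22, an RNA-binding protein of the large subunit, was the last of the 4 members beyond 3 scaled median absolute deviations of the family median. It read 6184 and 6303 in L929 and 9258 and 6096 in NIH3T3, so the lines overlapped. The difference was -0.27 ± 0.24 (limma adjusted p = 0.393). Without NIH3T3 2 it was -0.57, still under the fold of 1.5, and without NIH3T3 1 it was 0.035. Rps20, a protein of the head of the small subunit, completed the 5 lowest members. It read 9116 and 8554 in L929 and 10751 and 8356 in NIH3T3, with overlap and a difference of -0.10 (limma adjusted p = 0.742).

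On the other side, Rps25, a small subunit protein needed by several viral and cellular internal ribosome entry sites, had the largest positive difference. It read 638 and 656 in L929 and 446 and 460 in NIH3T3, with no overlap and little spread within either line. The difference was 0.51 ± 0.10, or 1.42-fold, which missed the fold threshold although the limma adjusted p was 0.0037. A brighter probe set of Rps25, shared with other symbols, read 5017 and 5195 in L929 and 5366 and 3650 in NIH3T3. The lines overlapped there, and its difference of 0.21 was not called (limma adjusted p over probe sets = 0.478). Rpl37, a zinc-binding protein of the large subunit, followed at 3207 and 2845 in L929 and 2191 and 2190 in NIH3T3, with a difference of 0.46 ± 0.13 (limma adjusted p = 0.0216). It is a member above 1000 whose NIH3T3 arrays were nearly equal, and its difference was 0.46 without either NIH3T3 array. The shared probe sets of Rpl37 had differences of 0.36, 0.31 and 0.19, with overlap of the lines and no call.

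Rps2, which lies near the mRNA entry channel, and Rpl41, a very short basic peptide, showed the pattern of most members. Their L929 arrays lay between NIH3T3 2, the lower, and NIH3T3 1. Rps2 read 9820 and 10304 in L929 and 10586 and 5581 in NIH3T3, with a difference of 0.39 (limma adjusted p = 0.336). It turned from -0.074 without NIH3T3 2 to 0.85 without NIH3T3 1. Rpl41 read 10247 and 10367 in L929 and 10698 and 5953 in NIH3T3, with a difference of 0.37 (limma adjusted p = 0.341). Rps27, a zinc-finger protein of the small subunit, read 244 and 216 in L929 and 149 and 214 in NIH3T3. Its L929 arrays were both higher, though one of them by little, and the difference of 0.35 did not pass the test (limma adjusted p = 0.149). Without NIH3T3 2 it was 0.60. A brighter probe set that Rps27 shares with another symbol read 7711 and 7517 in L929 and 6692 and 4203 in NIH3T3. The lines did not overlap there, and its difference of 0.52 was not called.

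By position in the ribosome, calls were few in either subunit. Of 22 large subunit members tested, 2 were called lower, with a median difference of 0.19, and of 19 small subunit members 1 was, with a median of 0.21, where 17.8% of all genes were called lower. The stalk proteins Rplp0 and Rplp2, which recruit elongation factors, both had a difference of 0.27 (limma adjusted p = 0.494 and 0.466). Rplp0 read 10306 and 12010 in L929 and 12116 and 7039 in NIH3T3. Both genes were called higher only when NIH3T3 1 was left out among the arrays left out in turn, at 0.66 and 0.62.

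Rpl11 joins Rpl5 and 5S RNA in a particle that can bind Mdm2 and so stabilise p53. It read 7566 and 6844 in L929 and 6804 and 5149 in NIH3T3, with a difference of 0.28 (limma adjusted p = 0.306). The L929 arrays were both higher, L929 2 by a small step. Rpl38, known from mouse mutants with altered translation of Hox mRNAs, read 10908 and 11357 in L929 and 12132 and 7756 in NIH3T3, a difference of 0.20 (limma adjusted p = 0.585). The 12 tested members in which mutations cause Diamond-Blackfan anaemia had 0 calls at this threshold, where 35.2% of all genes were called, and a median of 0.22.

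Paralogues offer cells another version of a ribosomal protein. Rps27l, which p53 can induce, read 4024 and 3959 in L929 and 4070 and 3532 in NIH3T3, with a difference of 0.074 and an interval from -0.28 to 0.43 (limma adjusted p = 0.725). Rpl39l, known for its use in male germ cells, read 4300 and 4426 in L929 and 4600 and 3805 in NIH3T3, with a difference of 0.060 and an interval from -0.32 to 0.44 (limma adjusted p = 0.793). The lines overlapped in both. For Rpl39, whose protein lies at the exit of the peptide tunnel, the own probe set was dim and uneven. It read 168 and 71.1 in L929 and 125 and 65.4 in NIH3T3, with a difference of 0.25 ± 0.39 (limma adjusted p = 0.631). A bright probe set that Rpl39 shares with another symbol read 10555 and 10354 in L929 and 9803 and 6555 in NIH3T3. Its difference of 0.38 was not called.

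Rps4x, the X-linked version of the small subunit protein S4, read 11113 and 9918 in L929 and 12282 and 8153 in NIH3T3, a difference of 0.069 (limma adjusted p = 0.852). Its paralogue Rps4l was at most 2.87 and Rpl3l, the muscle version of Rpl3, at most 14.3 on any array, so neither was tested. Rps16 was also untested, since its own probe set read at most 8.96. These readings lie under the level of 17.3 and carry no order. A bright shared probe set of Rps16 read 10260 and 9896 in L929 and 10646 and 6801 in NIH3T3, a difference of 0.24 that was not called.

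Where a gene had several probe sets, the calls lay mostly on the dim ones. Of the 93 tested probe sets, 10 in 9 genes were called lower and 0 higher, against 16.7% and 14.9% of all tested probe sets. Of the 22 below 1000 on every array, 8 were called lower, with a median difference of -0.17. Of the 69 above 1000 on every array, 1 was, with a median of 0.19. It was a probe set of Rpl13a, a large subunit protein, which read 2122 and 1727 in L929 and 3380 and 3415 in NIH3T3. The other 3 probe sets of Rpl13a were not called. In 20 genes more than 1 probe set was tested, the median range of differences within a gene was 0.59, and 0 genes had probe sets called in opposite directions.

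The widest range was in Rps3, a protein of the mRNA entry site, chosen here after its values were seen. Its bright probe set read 7012 and 7234 in L929 and 6739 and 5189 in NIH3T3, a difference of 0.27. Its dim probe set read 53.9 and 69.6 in L929 and 394 and 466 in NIH3T3, a difference of -2.65 (limma adjusted p over probe sets = 7.5e-06). The same was seen for Rpl22, where a dim probe set read 155 and 118 in L929 and 499 and 587 in NIH3T3, a difference of -1.94 (limma adjusted p over probe sets = 3.0e-05). The remaining Rpl22 probe set read 4257 and 4003 in L929 and 6372 and 4910 in NIH3T3, a difference of -0.44 that was not called (limma adjusted p over probe sets = 0.0973). All 3 Rpl22 probe sets thus had a negative difference.

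Rps20 had 2 dim probe sets called lower, at -1.10 and -1.42, beside 2 bright ones at -0.10 and 0.024. Rps24 and Rps9 each had 1 dim probe set called lower, at -0.78 and -0.61, while their bright ones ran from 0.048 to 0.25. Each also had another dim probe set that was not called, at 0.15 for Rps24 and 0.072 for Rps9. Which transcripts the dim probe sets detect was not tested, and no probe set's level is set against another's as an amount of mRNA.

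**Figure D4:**
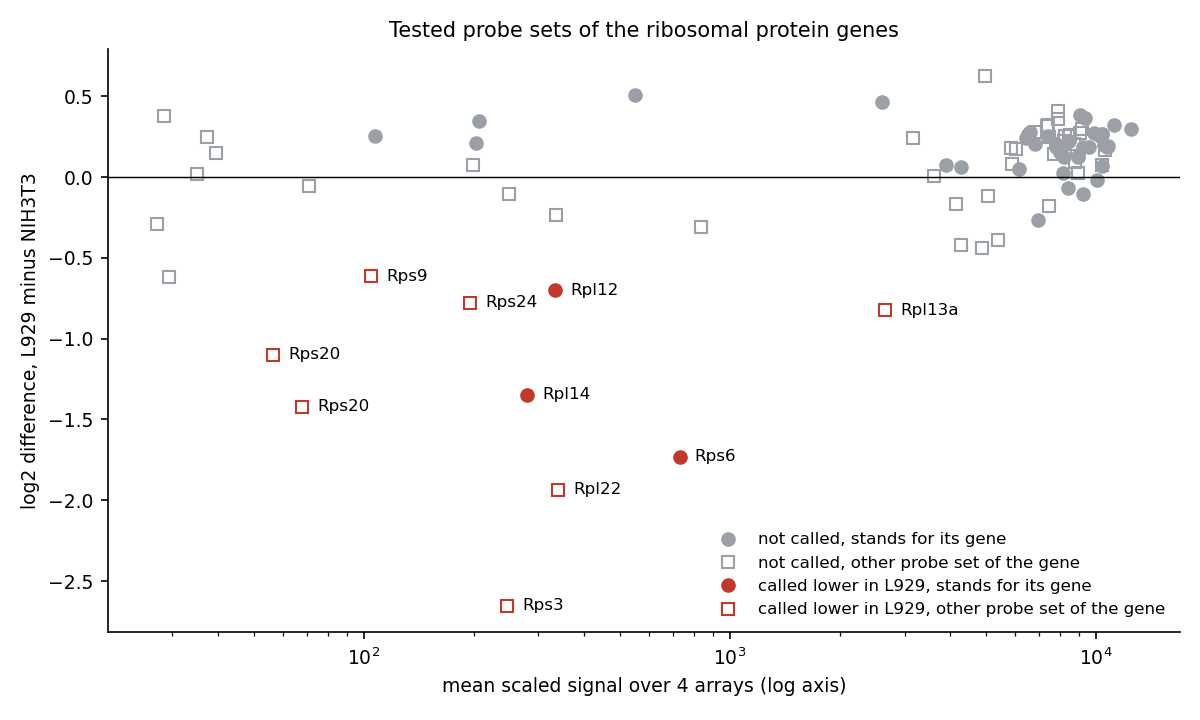
Log2 difference between L929 and NIH3T3 for the 93 tested probe sets against their mean scaled signal on a log axis, with the probe set that stands for its gene filled and the others open, and called ones in red. The red points, all below 0, have a mean signal below 1000 except that of Rpl13a, and the bright probe sets cluster just above 0.

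The probe sets that the annotation shares with pseudogenes bear on the 3 called genes. Rps6 had 9 such probe sets, listed with Rps6-ps4, of which 2 were called lower in L929. The clearer one read 892 and 835 in L929 and 2695 and 2709 in NIH3T3, a difference of -1.64 (limma adjusted p over probe sets = 1.3e-05). Another, above 1000 on every array, read 2128 and 2347 in L929 and 2996 and 2641 in NIH3T3, with no overlap and a difference of -0.33 that was not called (limma adjusted p over probe sets = 0.0933). The brightest read 11471 and 12486 in L929 and 12467 and 7144 in NIH3T3, a difference of 0.34 that was not called.

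Rpl14 had 5, listed with Rpl14-ps1, whose differences ran from -0.055 to 0.028, with 0 called. One of them read 6859 and 6269 in L929 and 7968 and 5596 in NIH3T3. Rpl12 had 2, both at 0.30 and not called. The lower level in L929 was thus called on the probe set that stands for each gene and, for Rps6, on 2 of the 9 shared ones. It was not called on any shared probe set of Rpl14 or Rpl12. The other own probe set of Rps6 was dim, at 26.4 and 17.0 in L929 and 35.3 and 38.9 in NIH3T3. Its difference of -0.62 was not called (limma adjusted p over probe sets = 0.130). Over all 105 tested shared probe sets with a ribosomal protein symbol, 3 were called higher and 4 lower, with a median of 0.18. Among all tested probe sets 14.9% were called higher and 16.7% lower. Of the 81 shared ones above 1000 on every array 0 were called, with a median of 0.20, where 31.6% of all tested probe sets were called.

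Other proteins of the same ribosome, outside the naming rule, were read beside the family. Rpl22l1, the paralogue of Rpl22, was higher in L929, at 6797 and 6589 against 4288 and 2790 in NIH3T3. The lines did not overlap, and the difference was 0.95 ± 0.22, or 1.93-fold (limma adjusted p = 0.0079). It was called without either NIH3T3 array, at 0.64 and 1.26, and not without either L929 array. Rps3a1 and Fau, which encode small subunit proteins, had differences of 0.15 and 0.0076, and Rpl7l1 one of 0.40 (limma adjusted p = 0.0157), under the fold.

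Of 17 tested translation factors whose mRNAs begin with a pyrimidine tract, 0 were called higher and 1 lower (5.88%), with a median of 0.057, against 17.4% and 17.8% of all genes. The lower one was Eef2, which moves the ribosome along the mRNA, at 3784 and 3946 in L929 and 8029 and 5335 in NIH3T3. Its difference was -0.76 ± 0.22 (limma adjusted p = 0.0206), and it was not called without NIH3T3 1, L929 1 or L929 2. Eef1a1, the factor that brings tRNA, shared the family's pattern, at 10146 and 10935 in L929 and 11522 and 6607 in NIH3T3, a difference of 0.27. The median of the 17 was 0.26 without NIH3T3 1 and -0.13 without NIH3T3 2.

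Of 52 ribosome assembly factors, 5 were called higher (9.62%) and 1 lower (1.92%) in L929, both below the 17.4% and 17.8% of all genes, with a median of 0.12. The higher ones included Nop16, at 1.19 (limma adjusted p = 4.0e-05), Noc2l, at 0.78 (limma adjusted p = 9.6e-04), and Rrp9, at 0.79 (limma adjusted p = 0.0256), which was lost without NIH3T3 2 or L929 2. The lower one was Nmd3, the export adaptor of the large subunit, at -0.70 (limma adjusted p = 0.0014). The median of the 52 was 0.23 without NIH3T3 1 and 0.078 without NIH3T3 2. Of 15 genes of RNA polymerase I and its factors, Taf1a was higher, at 1.58, and Polr1a, the catalytic subunit, lower, at -0.75, and 13 were not called, so that 6.67% were called in each direction.

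Among 17 growth regulators of the ribosome, Rheb, the activator of mTOR, was called higher at 0.69, and Myc, which drives transcription of ribosome genes, at 0.66. Tsc2, the inhibitor of Rheb, was called lower at -0.68, and Rps6kb2, an S6 kinase, at -0.66. The 2 calls in each direction are 11.8% of the list, below the 17.4% and 17.8% of all genes. None of these 4 calls held with every array left out in turn: Rheb was lost without either L929 array, Tsc2 without L929 2, Myc without L929 2 or NIH3T3 2, and Rps6kb2 without L929 1 or either NIH3T3 array. Of 9 host genes of small nucleolar RNAs, Zfas1 and Snhg12 were higher, at 1.70 and 1.66, and Snhg6 was lower, at -0.61, a call lost without L929 2. These are 22.2% and 11.1% of the list, against 17.4% and 17.8% of all genes.

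The proteins of the mitochondrial ribosome, encoded by a separate set of nuclear genes, were read in the same way. Of 76 tested, 14 were called higher in L929 (18.4%, near the 17.4% of all genes) and 2 lower (2.63%, against 17.8%), with a median of 0.33. That median was 0.25 without NIH3T3 2 and 0.33 without NIH3T3 1, positive with either array left out. Mrpl24 read 1410 and 1358 in L929 and 403 and 389 in NIH3T3, a difference of 1.78 ± 0.10 (limma adjusted p = 3.2e-06). Mrpl23 and Mrpl42 were also higher, at 1.37 and 1.33, and Mrpl35 and Mrps34 were lower, at -0.78 and -0.77. No test of the difference between the cytosolic and the mitochondrial sets was made.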

How the data were processed

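Per the submitters' processing notes, the deposited intensities are MAS5 signals, 1 per probe set and array. Which MAS5 version, scaling target and genome build were used is not given in the sources used here. The values are on a linear scale, and the number of arrays, 2 per line, limits the precision. Each array was scaled to a common mean trimmed by 2% at each end (factors 1.07, 1.14, 1.13 and 0.726), 8.01 (the 25th percentile) was added and log2 taken. A probe set entered the test when 1 line or both had both arrays above 17.3, the 40th percentile, a filter level and not a measured detection limit. For the comparison of the lines, limma 3.58.1 (lmFit, eBayes with trend) was run in R 4.3.3. The fold threshold of 1.5 and adjusted p of 0.05 are the submitters'.

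The brightest tested probe set stood for its gene, and adjustment was over 12676 genes, or over 27438 probe sets where probe sets are compared. The platform annotation gave 34945 probe sets a single symbol, 932 several and 9160 none, and all 46 member identifiers matched RefSeq's gene table. An exact permutation test of 2 against 2 arrays cannot go below p = 0.333 and was not used. The procedure was tested on simulated data with independent noise and no dependence of array differences on brightness. That test therefore does not cover the brightness pattern seen in the NIH3T3 pair.

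The members, the lists of related genes and the alternatives were chosen with earlier results of these data known. Genes named are the called members, those beyond 3 scaled median absolute deviations, the 5 largest differences each way, paralogues, stalk and 5S particle proteins, Rpl22, Rpl38 and Rps6, the untested members, and up to 3 called genes per direction of each list. Rps10 and other genes were named after their values were seen. Alternatives were other scalings, offsets, filters, probe set rules, a fit without the trend, each array left out, and the replicate block.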

Additional observations from a re-analysis of the deposited data

How the results depend on the processing

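Rps6 and Rpl14 were called lower under each of the 20 alternatives run. No alternative used the shared probe sets, so each of these calls for Rpl14 rests on its only own probe set, a dim one. They cannot show whether the call would hold on its brighter shared probe sets. The median difference of the family, 0.19, was -0.10 without scaling and -0.0086 with quantile normalization. Without scaling the median of all genes was -0.26 and 31.4% of the calls were higher, against 49.5%. Centred on the family it was 0.064, a value near 0 that the centring itself sets, and 16.1% of all genes were called. Leaving out 1 array gave -0.12 to 0.46, and loess without NIH3T3 2, added after seeing the data, gave -0.16. The count of members called higher, 0, was 1 with no filter (Rps16, below the filter level on every array), 0 to 9 with 1 array left out and 1 with loess without NIH3T3 2 (Rps27). The count called lower, 3, was 6 with the mean over a gene's probe sets (adding Rpl22, Rps20 and Rps3), 6 without probe sets marked _s_at or _x_at (adding Rps20, Rps24 and Rps9) and 2 to 3 with 1 array left out. The members beyond 3 scaled median absolute deviations, 4, were 7 without those probe sets, 7 with loess without NIH3T3 2 and 3 to 7 with 1 array left out. Rpl12 was also lost without scaling (-0.98) and centred (-0.83). The causes were not tested beyond the values given. Same-numbered arrays deviated with a correlation of 0.014. That value cannot show whether they shared a batch, since scaling removes a shift of a whole array. The labels give them only a number in common. With the replicate block, 0 members were called higher, 3 lower, the median was 0.19, and 4522 genes were called against 4464. Fits without 1 array take their spread from the other line's pair alone.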
